A study of Homo sapiens with 30 samples.

Results

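AP-1 is a dimeric transcription factor, and the 9 genes described here encode its FOS-type subunits (FOS, FOSB, FOSL1, FOSL2), its JUN-type subunits (JUN, JUNB, JUND) and the related basic leucine zipper proteins ATF3 and BATF3. They were chosen by family membership, from 20098 protein-coding genes placed on GRCh37. For each gene, the ChIP-seq peak summits within 1000 bp of a transcription start site, in the gene body and within 50 kb were taken from 18 summit lists. All lists came from MDA-MB-231, a human triple-negative breast cancer cell line with mesenchymal features, grown in serum-containing medium. Antibodies to SAP30, SIN3A and SIN3B were used in parental cells only, and antibodies to RNA polymerase II (Pol II), trimethylated histone H3 lysine 4 (H3K4me3) and acetylated histone H3 lysine 9 (H3K9Ac) in both parental and SAP30-KO1 cells, with 2 libraries in each of the 9 groups. SAP30-KO1 cells carry a CRISPR/Cas9 knockout of SAP30 and are a pool of single-cell clones, so a feature of the chosen clones and an effect of the missing protein cannot be told apart. No SAP30 list of the knockout cells was used here, so the absence of SAP30 protein could not be checked from these data.

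AP-1 subunits pair through a leucine zipper and place their basic regions on a palindromic element, the TPA response element (TRE). JUN proteins can pair with each other or with FOS proteins, whereas FOS proteins need a JUN partner, and ATF3 also recognises the related cyclic AMP response element (CRE). FOS, FOSB, JUN, JUNB and ATF3 are immediate early genes that growth factors and stress switch on within minutes, JUND is expressed more steadily, and FOSL1 and FOSL2 are late-induced members linked to invasive breast cancer cells. SAP30 is a subunit of the SIN3 corepressor complex, in which SIN3A or SIN3B is the scaffold. H3K4me3 and H3K9Ac are marks of active promoters, and the Pol II antibody shows where the polymerase is loaded.

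The lists held 10861 to 54622 summits, each 1 bp wide with the -log10 q-value of its peak, and the lowest scores lay between 1.30 and 1.40. Sequencing depth is unknown, and a score depends on depth, so each summit was given its percentile rank within its own list, from 0 for the best score to 100 for the worst. The value of a promoter was the rank of its best summit within 1000 bp of any start site of the gene. Of 5 genes held to be on in MDA-MB-231 (VIM, CD44, ZEB1, AXL and SNAI2), 5 had promoter summits of H3K4me3 and of Pol II in both libraries of both lines. Of 7 genes held to be off or low, only ERBB3 and EPCAM, 2 of the 7, had Pol II summits in both libraries, and this count was the same in each line, whereas H3K4me3 summits were present in both libraries at 6 in parental and at 5 in SAP30-KO1 cells.

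Upstream sequences are shown for the AP-1 genes with the best-ranked Pol II summits and a TATA box or a CRE-like element, as marked below. The 250 bases before the main start site, from GRCh37 and written along the direction of transcription, are at chr14:75745281-75745530 (plus strand) for FOS, chr1:59249720-59249969 (minus strand) for JUN, chr19:12902050-12902299 (plus strand) for JUNB and chr19:18392433-18392682 (minus strand) for JUND. Capitals mark a TATA box (TATAAA) at FOS and JUNB and a CRE-like element (TGACNTCA, which includes the CRE, TGACGTCA) at JUN and JUND.
FOS upstream: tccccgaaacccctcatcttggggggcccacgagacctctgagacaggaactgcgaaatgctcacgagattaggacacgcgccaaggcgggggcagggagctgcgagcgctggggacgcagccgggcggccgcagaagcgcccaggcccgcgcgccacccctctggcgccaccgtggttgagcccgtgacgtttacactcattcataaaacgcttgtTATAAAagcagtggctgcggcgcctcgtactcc
JUN upstream: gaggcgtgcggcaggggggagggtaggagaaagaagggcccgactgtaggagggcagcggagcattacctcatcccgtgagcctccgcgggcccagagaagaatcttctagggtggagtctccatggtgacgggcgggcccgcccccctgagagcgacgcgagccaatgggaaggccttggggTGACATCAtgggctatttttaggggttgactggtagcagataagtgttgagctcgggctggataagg
JUNB upstream: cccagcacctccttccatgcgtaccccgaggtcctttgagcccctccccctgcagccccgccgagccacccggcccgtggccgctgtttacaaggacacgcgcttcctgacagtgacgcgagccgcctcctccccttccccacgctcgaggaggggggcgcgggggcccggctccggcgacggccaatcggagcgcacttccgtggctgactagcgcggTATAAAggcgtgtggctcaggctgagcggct
JUND upstream: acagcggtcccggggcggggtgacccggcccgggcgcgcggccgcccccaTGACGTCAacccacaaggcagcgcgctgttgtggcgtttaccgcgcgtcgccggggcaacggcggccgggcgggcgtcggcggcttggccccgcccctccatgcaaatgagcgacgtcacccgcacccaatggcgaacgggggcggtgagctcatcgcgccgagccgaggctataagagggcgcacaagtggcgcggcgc

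Both strands of all 9 upstream windows were searched, counting the last base before the start site as -1. TATAAA was found at FOS (from -33), FOSB (from -30), JUNB (from -31) and ATF3 (from -32), and 9.29% of 19807 upstream windows of protein-coding genes held it. The CRE-like element was found at JUN (from -67) and at JUND (from -200), against 6.48% of windows, and the JUND match is also a CRE, which 2.40% of windows held. No AP-1 gene had a TRE (TGANTCA) in these 250 bases, where 4.70% of windows had one. None had an exact CArG box, the serum response factor element, in the same bases, and 1.13% of windows had. Elements more than 250 bases upstream lay outside these windows. CCAAT was found at JUN (from -87), JUNB (from -67) and JUND (from -74), against 34.2% of windows. The GC box (GGGCGG) was found 5 times at JUND, 3 times at BATF3 and not at JUNB or ATF3, and 59.2% of windows held at least 1. A match is a description of the letters in these windows and not a measured binding site.

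Of the 5 best-ranked SAP30 summits near AP-1 genes, those at -11954 bp of FOSB and +927 bp of FOSL1 had a TRE within 100 bases. The others, at +15193 and +41120 bp of JUNB and -41360 bp of JUND, had none, and their mean ranks were 0.484, 0.928 and 2.25. Those at +15193 bp of JUNB and -41360 bp of JUND lay 95 and 89 bp from a start site of another gene. The TRE-bearing pair is shown, because the TRE is the AP-1 element, as the summit base of the first library with 100 bases to each side, GRCh37 plus strand, with every TRE in capitals. The window near FOSB, chr19:45959200-45959400, lies inside the span annotated to ERCC1 and ranked 1.84 and 1.97 in the 2 SAP30 libraries. Its TREs start 61 bases before (TGAATCA) and 68 bases after (TGAGTCA) the summit base. Both match the searched pattern TGANTCA, which allows any middle base. The window at FOSL1, chr11:65666832-65667032, is centred at +927 bp in an intron of FOSL1 and ranked 1.73 and 3.02, with its TRE starting 75 bases before the summit base.
FOSB distal SAP30 window: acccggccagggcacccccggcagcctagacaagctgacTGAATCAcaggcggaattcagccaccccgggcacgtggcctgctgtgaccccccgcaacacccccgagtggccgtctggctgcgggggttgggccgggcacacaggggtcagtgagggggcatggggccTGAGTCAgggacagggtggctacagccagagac
FOSL1 intronic SAP30 window: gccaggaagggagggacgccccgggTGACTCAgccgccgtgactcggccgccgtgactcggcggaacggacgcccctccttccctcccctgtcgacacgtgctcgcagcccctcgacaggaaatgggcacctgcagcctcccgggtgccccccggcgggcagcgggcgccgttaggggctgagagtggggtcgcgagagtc

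SAP30 and both SIN3 scaffolds occupied the promoters of FOSB, FOSL2, JUND and ATF3 in both libraries of each protein. The 4 genes stand beside 30.2% of all protein-coding genes with that combination. SAP30 had a promoter summit in both libraries at 6 of the 9 genes (FOSB, FOSL1, FOSL2, JUND, ATF3 and BATF3), against 61.2% of all genes. The SAP30 count depends on the 1000 bp limit. FOSL1 was counted from summits at +927 and +986 bp. The nearest summits of FOS, at -1464 and -1598 bp, were not counted. Nor were those of the first library at JUN (+1275 bp) and JUNB (+2436 bp). SIN3A had one at 8 genes, all but BATF3, against 31.5% of all genes. SIN3B had one at 7 genes, all but FOSL1 and BATF3, against 51.7% of all genes. The SIN3B count depends on the limit too. JUN was counted from a summit at -984 bp in the first library and JUNB from one at +995 bp in the second. The nearest summit of FOSL1 in the second library, at +1127 bp, was not counted.

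Among the FOS-type genes, SAP30 ranked best at FOSL1, at 1.73 and 3.02 in the 2 libraries, with summits at +927 and +986 bp. At FOSB (chr19:45971253-45978437, plus strand) SAP30 ranked 8.41 and 3.57, with summits at -108 and -107 bp. At FOSL2 (chr2:28615315-28640184, plus strand) SAP30 ranked 10.0 and 17.2, at +13 and +35 bp. FOS itself (chr14:75745529-75748933, plus strand) had no SAP30 summit within 1000 bp in either library. Its nearest SAP30 summits lay just beyond that window, at -1464 and -1598 bp, and ranked 5.14 and 8.55.

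At FOS, where SAP30 had no promoter summit, both SIN3 scaffolds had one. SIN3A ranked 23.9 and 27.5 there and SIN3B 12.4 and 9.68, with summits between -331 and +101 bp. At FOSL1 (chr11:65659520-65668044, minus strand) the best SIN3A summits, at +968 and +873 bp with ranks of 3.39 and 7.26, lay close to the intronic SAP30 summits, whose window is printed above. SIN3B at FOSL1 ranked 15.6 in the first library, and in the second its nearest summit, at +1127 bp with a rank of 5.87, fell outside the window. FOSB and FOSL2 differed in SIN3A, at 49.3 and 22.1 for FOSB and 14.1 and 4.30 for FOSL2, while SIN3B ranked 7.90 and 13.3 at FOSB and 4.50 and 11.7 at FOSL2.

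Of the JUN-type genes, JUND (chr19:18390504-18392432, minus strand) had SAP30 in both libraries, at 11.8 and 8.64, with summits at +198 and +180 bp. JUNB (chr19:12902300-12904129, plus strand) had a SAP30 promoter summit in the second library only, at -139 bp with a rank of 3.07, and the first library's nearest summit was at +2436 bp with a rank of 3.097. JUN (chr1:59242517-59249720, minus strand) had one in the second library only, ranked 14.8, while the nearest summit of the first library was at +1275 bp and ranked 26.8. The second library also had a JUNB summit past the end of the gene, at +2386 bp with a rank of 6.12, so the libraries share that site and differ in the promoter summit.

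JUNB had the best combined SIN3 ranks of the family, at 6.10 and 4.80 for SIN3A and 2.78 and 4.24 for SIN3B. JUND ranked 74.4 and 4.34 for SIN3A, a spread between libraries that covers most of the list, and 33.4 and 24.2 for SIN3B. At JUN the SIN3A ranks were 47.9 and 67.4, and the SIN3B ranks 90.1 and 12.6. Those SIN3B ranks belong to different sites, at -984 bp in the first library and +919 bp in the second. The second library also had a SIN3B summit at +66 bp, ranked 26. The start sites of LINC01135 and of an unnamed noncoding gene lie within 2000 bp of that of JUN, so a summit there cannot be given to JUN alone, and FOSL2-AS1 stands likewise beside FOSL2.

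ATF3 (chr1:212738676-212794119, plus strand), a stress-induced repressor or partner of JUN proteins, had SAP30 at 15.6 and 17.5, SIN3A at 16.8 and 29.8 and SIN3B at 46.4 and 29.1. BATF3 (chr1:212859759-212873182, minus strand), best known from dendritic cells, had SAP30 at 15.4 and 17.9, close to the ATF3 ranks. SIN3A was found at BATF3 in the second library only, at 43.0, and SIN3B in the first only, at 93.5. The heat map of promoter ranks gives all 18 libraries side by side.

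**Figure D1:**
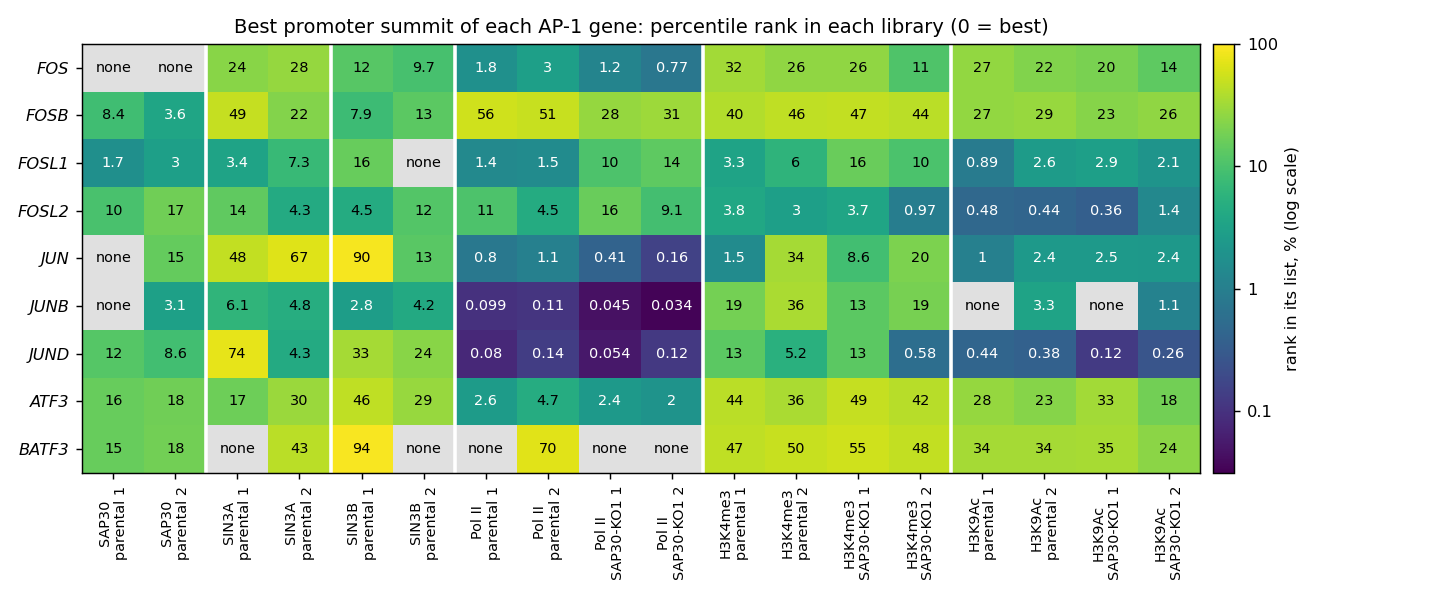
Percentile rank of the best summit within 1000 bp of a start site for the 9 AP-1 genes (rows) in the 18 libraries (columns), coloured on a log scale with darker cells for better ranks and grey cells for no summit. JUNB and JUND have Pol II ranks of 0.137 or better in all 4 libraries, while BATF3 has a Pol II summit in 1 library, ranked 70.0.

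SAP30 summits were dense around most of the genes. Pairing each summit of the first SAP30 library with one of the second within 250 bp gave 71 paired summits within 50 kb of the 9 start sites, of which 45 were more than 1000 bp from any annotated start site. In single libraries, FOSL1 had 18 and 26 SAP30 summits within 50 kb, FOSB 13 and 18, JUNB 13 and 14, JUND 13 and 12, FOSL2 11 and 11, JUN 5 and 9, ATF3 5 and 10, FOS 4 and 5 and BATF3 3 and 5. The median over all protein-coding genes was 2 in each library. For a median AP-1 gene, 95.8% of protein-coding genes had fewer SAP30 summits in the same distance. The corresponding values were 97.4% for parental H3K9Ac, 90.9% for parental Pol II and 78.5% for parental H3K4me3. FOSB, FOSL1, JUNB and JUND lie among many other genes on chromosomes 11 and 19, and the part of gene density in these counts was not tested.

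Of the 45 SAP30 summits away from start sites, 8 (17.8%) held a TRE within 100 bases of the summit, and 4 of the other 26 (15.4%) held one. Across the genome, a TRE was present at 35.1% of 12360 such distal SAP30 summits and at 6.09% of equally long windows placed 2000 bp to the side of them. At the 12182 SAP30 summits within 1000 bp of a start site the share was 5.02%, and 5.72% beside them. The TRE is the element bound by the products of these genes, and these lists hold no AP-1 antibody, so which protein lies on those sites was not measured. The central 51 bases of the distal summits held a TRE in 10.1%, above the 6.09% of the longer windows to the side. Most TRE-bearing distal summits had none in that centre, but most of the searched bases also lie outside it. No side windows of 51 bases were searched, and whether the TRE is concentrated near the summit base was not tested.

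The TRE-bearing distal summits lay at FOSB (1 of 7), FOSL1 (1 of 7), FOSL2 (1 of 9), JUN (2 of 4), JUNB (1 of 7) and JUND (2 of 6). None was found among the 1 of FOS, the 3 of ATF3 and the 1 of BATF3. SIN3B had summits of both libraries within 500 bp at 29 of the 45 distal sites and SIN3A at 4. Over the 12360 distal SAP30 summits of the genome the shares were 18.7% and 2.82%. At the other 26 sites, SIN3B had them at 12 and SIN3A at 12, beside 65.0% and 38.7% of the 12182 such summits of the genome. The SIN3B lists held 22298 to 26307 summits and the SIN3A lists 10861 to 11115. Counted likewise, parental H3K4me3 lay at 17 of the 45 distal sites, Pol II at 17 and H3K9Ac at 22. No genome-wide share was computed for these marks. The map of SAP30 summits shows their placing around each start site.

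**Figure D2:**
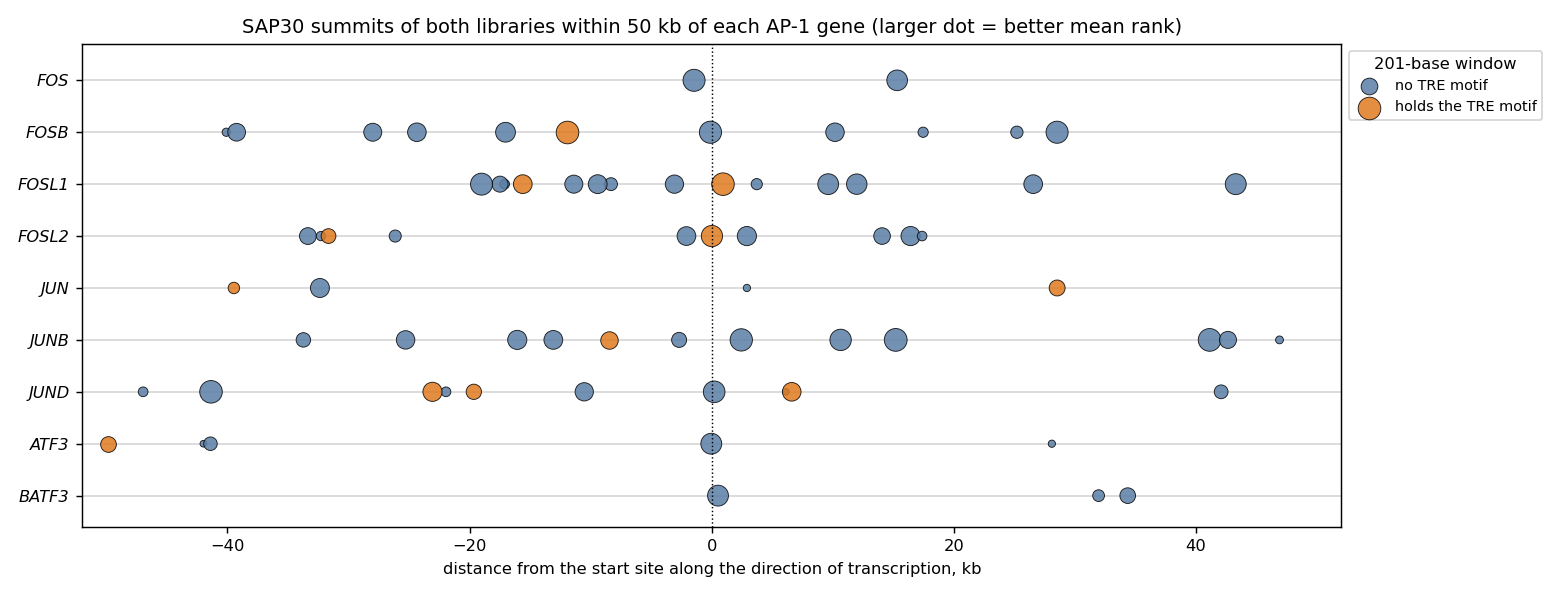
SAP30 summits found in both libraries within 50 kb of the start site of each AP-1 gene, by distance in kb along the direction of transcription, with larger dots for better mean ranks and orange dots for summits with a TRE within 100 bases. Of the 71 summits, 12 hold a TRE, including those at -11954 bp of FOSB and +927 bp of FOSL1.

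Pol II was loaded at 8 of the 9 genes in all 4 libraries, all but BATF3, against 53.3% of all genes. The summits sat just inside the transcribed region, with medians over the AP-1 genes of 35 to 44.5 bp downstream of the main start site. Over all genes the medians were 34 to 35 bp, from summits within 1000 bp of the main start site only. The AP-1 medians also admitted summits near other start sites, as at FOSB in the first parental library (+1190 bp). No AP-1 gene lost its Pol II summit (1.34% of all genes had it in both parental and in neither SAP30-KO1 library), and none gained one (0.134%). Both SAP30-KO1 ranks were better than both parental ranks at 5 of 8 genes (FOS, FOSB, JUN, JUNB and ATF3), against 15.4% of 10706 genes tested. They were worse at 1 gene, FOSL1, against 24.2%.

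JUNB and JUND had the best Pol II ranks of the family. JUNB ranked 0.0989 and 0.111 in parental and 0.0450 and 0.0339 in SAP30-KO1 libraries. JUND ranked 0.0796 and 0.137 in parental and 0.0536 and 0.120 in SAP30-KO1 libraries. The groups did not overlap at JUNB and overlapped at JUND, and each gene was within the first 0.137% of every list. JUN ranked 0.798 and 1.07 in parental and 0.411 and 0.156 in SAP30-KO1 libraries, also without overlap. On the scale of the test, normal scores of the ranks with positive values for a better rank in SAP30-KO1, the difference was 0.28 at JUNB (SE 0.25), 0.08 at JUND (SE 0.26) and 0.44 at JUN (SE 0.27).

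Among the FOS-type genes, FOS ranked 1.799 and 2.995 in parental and 1.21 and 0.768 in SAP30-KO1 libraries, a difference of 0.35 in normal score (SE 0.26). FOSB had the weakest Pol II summits of the family after BATF3, at 56.3 and 51.1 in parental and 28.2 and 31.1 in SAP30-KO1 libraries, a difference of 0.63 (SE 0.26). In the first parental library the best FOSB summit was at +1190 bp, and in the other 3 libraries between +37 and +67 bp. Neither pair of groups overlapped. FOSL2 ranked 10.6 and 4.51 in parental and 15.8 and 9.12 in SAP30-KO1 libraries, and here the groups overlapped, with a difference of -0.30 (SE 0.29).

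FOSL1 stood on the other side. Its Pol II summit ranked 1.41 and 1.54 in parental libraries and 10.4 and 13.6 in SAP30-KO1 libraries, always within +25 to +39 bp. The groups were far apart and the difference was -0.997 in normal score (SE 0.26), lower than that of all but 1.78% of the genes tested. ATF3 ranked 2.61 and 4.65 in parental and 2.40 and 2.007 in SAP30-KO1 libraries, a difference of 0.20 (SE 0.26) without overlap. At BATF3 a Pol II summit was found only in the second parental library, ranked 70.0, so the gene was not tested for Pol II.

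**Figure D3:**
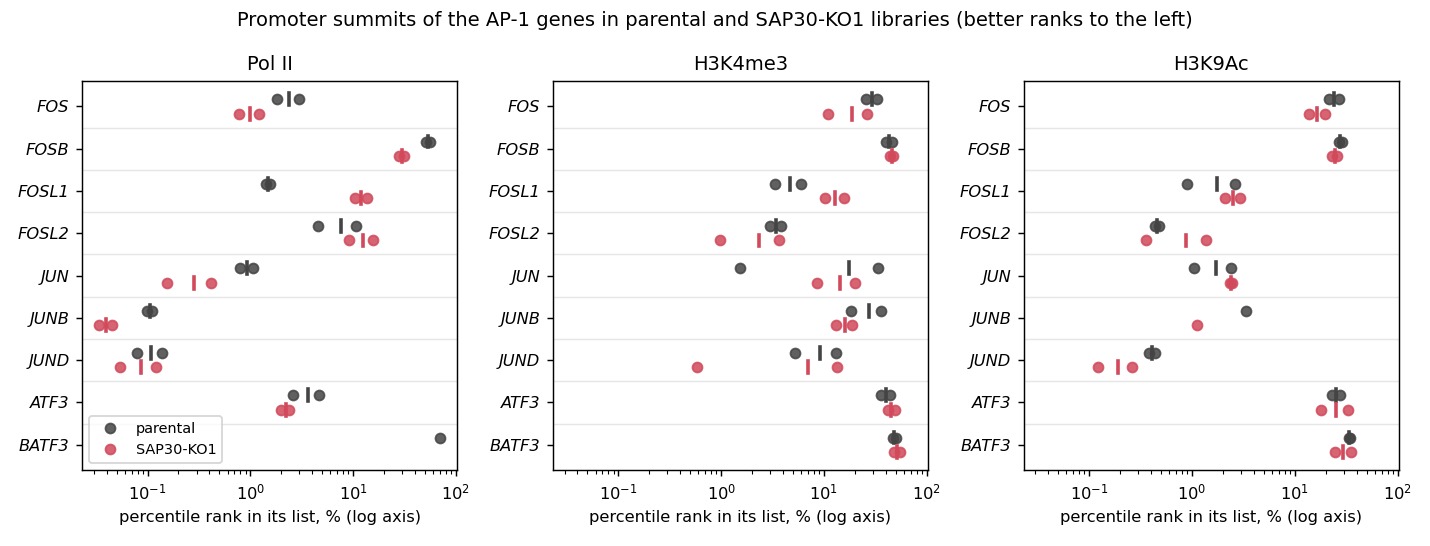
Percentile ranks (log axis, better to the left) of the promoter summits of the AP-1 genes for Pol II, H3K4me3 and H3K9Ac, with 1 point per library, parental in dark grey and SAP30-KO1 in red, and a bar at the mean of each pair. FOSL1 shows the widest Pol II separation to the right, from 1.41 and 1.54 to 10.4 and 13.6, while JUNB, JUN and FOS lie further left in SAP30-KO1.

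None of the Pol II differences passed the test. In limma's moderated test with Benjamini-Hochberg adjustment over 10706 genes, 0 genes were called in either direction (0%), so 0 of 8 AP-1 genes were, with adjusted p from 0.62 for FOSL1 to 0.95 for JUND. At an unadjusted p under 0.05 there were 828 genes (7.73%), among them FOSL1 and FOSB. With log2 scores in place of ranks, whose median Pol II difference over all genes was -1.55, 7626 genes were called, all as worse, and all 8 AP-1 genes had a negative difference, with FOSL1, FOSL2 and JUND called. Without SAP30-KO1 replicate 1, 711 genes were called, FOSL1 among them. A single promoter of 2 libraries against 2 cannot give an exact two-sided permutation p below 0.33. The labels do not say whether the libraries came from separate cultures, so a p measures only the spread between these libraries.

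H3K4me3 marked all 9 promoters in all 4 libraries, BATF3 included, against 62.3% of all genes. This count depends on the 1000 bp limit. With a 500 bp window only FOS, FOSB, ATF3 and BATF3 had it in all 4 libraries, while genes tested overall fell from 12531 to 11075. FOSL2 was counted from summits at +893 to +962 bp. No AP-1 gene lost the mark (0.916% of all genes) or gained it (0.104%). FOSL2, at 3.81 and 2.99 in parental and 3.67 and 0.974 in SAP30-KO1 libraries, had the most evenly high ranks. BATF3 had the worst ranks on average, at 46.7 and 50.03 in parental and 55.4 and 47.6 in SAP30-KO1 libraries, so the mark was present in lists where Pol II was nearly absent. At the AP-1 genes the H3K4me3 summits had medians of 321 to 549 bp downstream of the main start site in the 4 libraries. Over all genes the medians were 189 to 214 bp. The measures are not alike, because the all-gene medians used only summits within 1000 bp of the main start site. The AP-1 medians also admitted summits near other start sites of a gene, as at FOSB (+1612 to +1645 bp).

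The libraries of 1 group often disagreed on H3K4me3 more than the lines did. JUN ranked 1.53 and 33.8 in parental and 8.59 and 20.3 in SAP30-KO1 libraries. Its best summits were at different places, +565 and -842 bp in parental and +255 and +618 bp in SAP30-KO1 libraries. A change of summit and a change of signal at JUN therefore cannot be told apart. JUND ranked 13.0 and 5.22 in parental and 13.3 and 0.580 in SAP30-KO1 libraries. The standard errors of their differences were 0.65 at JUN and 0.54 at JUND, the largest of the family. JUNB ranked 18.5 and 35.7 in parental and 13.1 and 18.9 in SAP30-KO1 libraries, with an overlap.

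FOS ranked 32.5 and 25.8 in parental and 26.3 and 10.9 in SAP30-KO1 libraries for H3K4me3, a difference of 0.38 (SE 0.26). FOSB ranked 39.8 and 45.8 in parental and 47.4 and 43.6 in SAP30-KO1 libraries, from summits at +1612 to +1645 bp, near a downstream start site of the gene. ATF3 ranked 43.9 and 36.1 in parental and 48.8 and 41.8 in SAP30-KO1 libraries. In all of these the groups overlapped.

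FOSL1 was the only AP-1 gene whose groups were separate for H3K4me3. It ranked 3.35 and 5.97 in parental and 15.7 and 10.2 in SAP30-KO1 libraries, a difference of -0.55 (SE 0.19). Taken from the summit nearest to a start site instead of the best one, that difference was 0.75. Both SAP30-KO1 ranks were worse than both parental ranks at this 1 gene of 9, against 28.1% of 12531 genes, and better at 0, against 11.5%. In limma 0 genes were called in either direction (0%), with an adjusted p of 0.62 for FOSL1, and at an unadjusted p under 0.05 there were 991 genes (7.91%), of the AP-1 genes FOSL1 alone.

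H3K9Ac was present in all 4 libraries at 8 of the 9 genes, against 59.9% of all genes. JUNB was the exception, with a summit within 1000 bp only in the second library of each line, ranked 3.34 in parental and 1.11 in SAP30-KO1 cells. The first libraries had their nearest summit upstream, at -1809 and -1797 bp, with ranks of 1.06 and 0.502. No AP-1 gene lost the mark (0.423% of all genes) or gained it (0.328%).

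FOSL2 and JUND had the best-ranked H3K9Ac. FOSL2 ranked 0.477 and 0.438 in parental and 0.361 and 1.37 in SAP30-KO1 libraries. JUND ranked 0.440 and 0.381 in parental and 0.123 and 0.263 in SAP30-KO1 libraries, without overlap and with a difference of 0.27 (SE 0.18). Both were near the top of lists of more than 50000 summits. JUN ranked 1.05 and 2.37 in parental and 2.46 and 2.36 in SAP30-KO1 libraries, which overlapped.

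FOS ranked 26.8 and 21.7 in parental and 19.5 and 13.7 in SAP30-KO1 libraries for H3K9Ac, without overlap, a difference of 0.28 (SE 0.18). FOSB ranked 26.7 and 28.6 in parental and 23.2 and 25.9 in SAP30-KO1 libraries, also without overlap, a difference of 0.10 (SE 0.17). Its best summits lay at +1042 and +1592 bp in parental and +1051 and +1123 bp in SAP30-KO1 libraries. The summits nearest to its main start site ranked 37.3 and 79.5 in parental and 37.2 and 62.1 in SAP30-KO1 libraries, which overlap. By best summits, FOS, FOSB and JUND made 3 of 8 genes with both SAP30-KO1 ranks better, against 16.4% of 12048 genes. Both ranks were worse at 0 genes, against 22.1%. FOSL1 ranked 0.891 and 2.64 in parental and 2.95 and 2.08 in SAP30-KO1 libraries, which overlapped.

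ATF3 ranked 27.6 and 23.1 in parental and 32.6 and 17.97 in SAP30-KO1 libraries for H3K9Ac, and BATF3 33.7 and 34.2 in parental and 35.0 and 24.4 in SAP30-KO1 libraries. Both overlapped between the lines. In limma 2 of 12048 genes were called as better in SAP30-KO1 (0.0166%) and 0 as worse (0%), none of them an AP-1 gene, with adjusted p of 0.747 or more for the AP-1 genes. At an unadjusted p under 0.05 there were 968 genes (8.03%), of which 0 were AP-1 genes.

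FOSL1 lies on the long arm of chromosome 11 (11q), where the median difference in Pol II normal score was -0.37 over 402 genes, against -0.07 over all genes tested. In rank units the median 11q gene was 9.94 points worse in SAP30-KO1 (Pol II), 8.50 points worse for H3K4me3 over 487 genes and 5.08 points worse over 470 genes for H3K9Ac, against 1.48, 2.09 and 0.309 points over all genes. All 7 other tested genes with a start site within 100 kb of that of FOSL1 also had a negative Pol II difference, with a median of -0.74. Within 11q, 5.97% of genes had a lower Pol II difference than FOSL1 and 20.1% a lower H3K4me3 difference, while for H3K9Ac, where the groups of FOSL1 overlapped, 70.6% had a lower one.

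With the scores of each library centred on the median of the arm in that library, the Pol II difference of FOSL1 was -0.66 (adjusted p = 0.67 by limma), its H3K4me3 difference -0.23 (adjusted p = 0.78) and its H3K9Ac difference 0.13 (adjusted p = 0.93). A shift shared by the arm and a difference at FOSL1 alone cannot be told apart from these lists, and what moves the arm was not tested. The other 7 genes tested for Pol II lie on arms whose median Pol II differences were between -0.04 and 0.03. Their own differences kept their sign after the centring except that of JUND, which went from 0.08 to -0.07, since a difference between library medians need not equal the median of the differences.

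**Figure D4:**
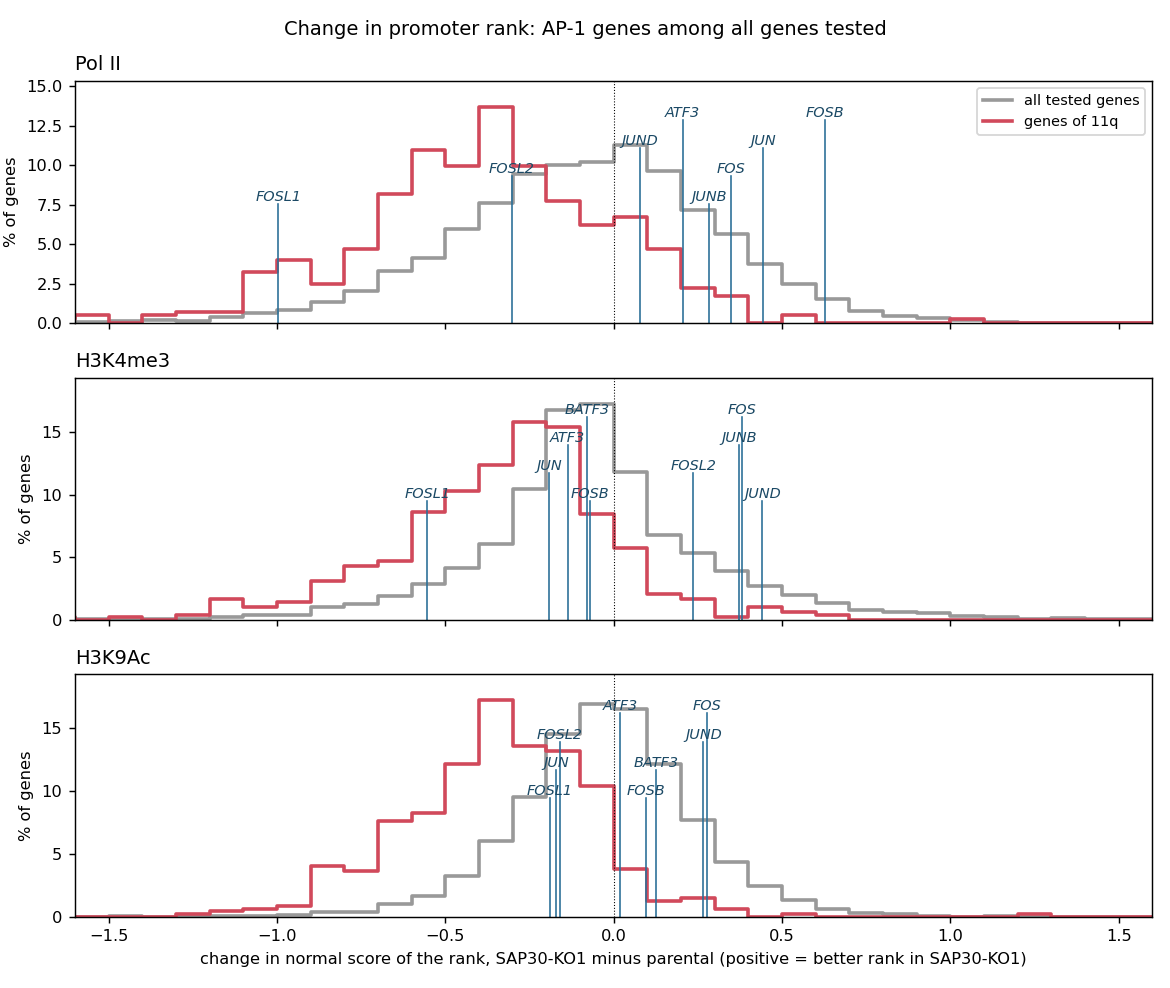
Distribution of the difference in normal score of the promoter rank (SAP30-KO1 minus parental, positive for a better rank in SAP30-KO1) over all genes tested (grey) and the genes of 11q (red), as a percentage of genes per bin, for Pol II, H3K4me3 and H3K9Ac, with vertical lines at the AP-1 genes. FOSL1 lies at -0.997 for Pol II, in the left part of the 11q genes, and FOSB at 0.63 is the furthest to the right.

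Over the 8 AP-1 genes tested for Pol II, 6 differences were positive and the median was 0.24, beside a median of -0.07 over all genes tested, of which 43.3% were positive. For H3K4me3, 4 of 9 were positive with a median of -0.07, beside a median of -0.08 and 36.9% positive over all genes. For H3K9Ac, 5 of 8 were positive with a median of 0.06, beside a median of -0.02 and 45.9% positive. The 3 marks share no libraries but share the parental and knockout lines.

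JUND, JUNB and FOSL1 had more Pol II summits in the gene body in each SAP30-KO1 list than in either parental list, a count with no test. These 3 of 9 genes stand beside 5.99% of 19808 protein-coding genes with a canonical start site, and 0 AP-1 genes had fewer in both SAP30-KO1 lists, beside 4.29%. JUND, an intronless gene, had 1 Pol II summit in each parental and 2 in each SAP30-KO1 library, the additional ones at +1099 and +1137 bp with ranks of 9.05 and 7.94. JUNB, also intronless, had 2 and 1 in parental and 4 and 4 in SAP30-KO1 libraries. FOSL1 had 3 and 3 in parental and 4 and 5 in SAP30-KO1 libraries. JUN had 5 and 5 in parental and 6 and 3 in SAP30-KO1 libraries, and FOSB 1 and 3 against 4 and 3, both overlapping.

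Within 50 kb, JUND had 9 and 10 Pol II summits in parental and 15 and 15 in SAP30-KO1 libraries, and FOSL1 21 and 23 against 27 and 36. These were the only 2 AP-1 genes with more in both SAP30-KO1 lists, beside 12.4% of the 19808 genes, and 0 had fewer, beside 7.19%. The lists themselves held 20736 and 23002 summits in parental and 23342 and 22123 in SAP30-KO1 cells. Each peak has 1 summit in these files, so a wide peak that was split into several and additional polymerase in the gene body cannot be told apart.

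Genes around the AP-1 family gave no calls, and nearly no gene of the genome did. Over all genes tested, limma called 0 of 10706 (Pol II), 0 of 12531 (H3K4me3) and 2 of 12048 (H3K9Ac). At an unadjusted p under 0.05 the shares over all genes were 7.73%, 7.91% and 8.03%. Of 16 other basic leucine zipper genes, the test covered 12 (Pol II), 13 (H3K4me3) and 14 (H3K9Ac), and limma called 0 of them in either direction for any mark. At an unadjusted p under 0.05, 1 of the 12 was worse in SAP30-KO1 for Pol II and none for the other marks. All 16 kinase and serum response genes that induce AP-1 were tested for each mark with 0 calls, and at an unadjusted p 2 were worse for Pol II, 1 was worse for H3K4me3 and 2 were better for H3K9Ac.

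Of 15 other immediate early genes, 12, 12 and 11 were tested for Pol II, H3K4me3 and H3K9Ac with 0 calls, and at an unadjusted p 2 were worse, both for H3K9Ac. Of 19 known AP-1 target genes, 12, 11 and 12 were tested with 0 calls and none at an unadjusted p under 0.05. The unadjusted shares over all genes were 7.73% (Pol II), 7.91% (H3K4me3) and 8.03% (H3K9Ac). The median differences of the 4 lists lay between 0.02 and 0.06 (Pol II), between -0.14 and 0.10 (H3K4me3) and between -0.23 and 0.01 (H3K9Ac). SAP30 had a promoter summit in both libraries at 14 of 16, 16 of 16, 14 of 15 and 11 of 19 genes of these lists in the same order, beside the 61.2% of all protein-coding genes.

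The genes whose promoter ranks were most like those of an AP-1 gene over all 18 libraries were found by Euclidean distance for the 4 AP-1 genes with a summit in every list. The search covered only the 5745 to 5749 genes that also had a summit in every list. They were ATOSB for FOSB (distance 40.1 in percentile points, median over the genes compared 103), RICTOR for FOSL2 (15.6, median 82.0), FBXO34 for JUND (18.9, median 92.9) and LDLRAD3 for ATF3 (33.0, median 100.1).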

How the data were processed

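ChIP-seq summit lists of 18 MDA-MB-231 libraries (9 groups of 2) were analysed, and 8 input and 4 histone H3 libraries were not used here. The authors called peaks in each library by itself and deposited 1 summit per peak with a -log10 q-value. The submitters' processing notes name FastQC 0.11.2, Bowtie2 2.3.3.1, Picard, MACS2 2.1.0 and hg19. Titles of the input libraries name SAP30 with SIN3A, SIN3B and Pol II as targets. Whether each list was called against them, the MACS2 options and the depth are not given in the sources used here, and no peak with a score under 1.30 is present, so an absent summit is one not called at that depth.

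Scores were converted to percentile ranks within each list. Between 79.9% and 98.7% of scores in a list were tied, and ties shared their mean rank. Start sites were those of basic transcripts in GENCODE release 44 lifted to GRCh37. The promoter value was the best rank within 1000 bp, and genes with a value in all 4 lists of a mark were tested as normal scores with limma 3.58.1 in R 4.3.3, without a replicate block, with Benjamini-Hochberg adjustment over all genes tested and a threshold of 0.05. Occupancy and summit counts have no test. The AP-1 genes and the wider lists were chosen with earlier results of these data known. All 9 AP-1 genes are named, genes of the wider lists only if called (at most 3 per list and mark), and 1 nearest gene for each AP-1 gene with a summit in all lists. Motifs were searched on both strands of GRCh37. Alternatives were windows of 500 and 3000 bp, log2 scores, the nearest summit, absent summits at the end of the list, lists of equal length, better-ranked 50% of summits, distances of 25 and 100 kb, arm centring, a replicate block and each library left out. Ranks among tested promoters only were added after seeing the data.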

Additional observations from a re-analysis of the deposited data

How the results depend on the processing

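With log2 scores in place of ranks, the calls were 7626 genes (Pol II), 269 (H3K4me3) and 20 (H3K9Ac), where ranks called 0, 0 and 2. The median Pol II difference over all genes was then -1.55, and 3 AP-1 genes were called (FOSL1, FOSL2 and JUND). On that scale FOS was at -0.93, FOSB -0.13, JUN -0.72, JUNB -0.96, JUND -1.31 and ATF3 -1.22 for Pol II, and FOSL1 at 0.0930, FOSL2 0.14 and JUN 0.11 for H3K9Ac, all opposite in sign to the ranks. Relative to the median of all genes, the Pol II differences of FOS (0.62), FOSB (1.42), JUN (0.84), JUNB (0.59), JUND (0.24) and ATF3 (0.34) were positive, as with ranks. Absent summits at the end of the list gave 262, 185 and 128 genes called for Pol II, H3K4me3 and H3K9Ac, a setting that tests more genes. For H3K9Ac, 1 gene was called with a 3000 bp window, 0 with the nearest summit, 0 with lists of equal length and 1 with ranks among tested promoters only, which was chosen after seeing the data. The nearest summit turned FOSB (0.61) and FOSL1 (0.75) for H3K4me3 and FOSL1 (0.64), JUN (0.0360) and ATF3 (-0.0267) for H3K9Ac. Signs also turned for JUND Pol II (-0.0701) and FOSL1 H3K9Ac (0.13) with arms centred, ATF3 H3K9Ac (-0.0267) at 500 bp, and FOSB (0.0089) and BATF3 (0.0201) H3K4me3 among tested promoters. At 500 bp, 5 genes had parental H3K4me3 and 4 had SAP30-KO1 H3K9Ac summits in both libraries. The cause of these differences was not tested.

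Leaving out each library in turn gave 0 to 711 genes called for Pol II and 10 to 33 for H3K9Ac. Of the AP-1 genes 0 to 1 were called for Pol II, FOSL1 without SAP30-KO1 replicate 1 (-1.08), which also gave the 711. The lone library left in a group is then assumed to vary like the other group. The differences that changed sign ranged from -0.0403 to 0.19 for JUND Pol II. For H3K4me3 they ranged from -0.15 to 0.0062 at FOSB, -0.0369 to 0.51 at FOSL2, -1.06 to 0.68 at JUN, -0.26 to 1.15 at JUND and -0.18 to 0.0189 at BATF3. For H3K9Ac they ranged from -0.41 to 0.0256 at FOSL1, -0.40 to 0.0800 at FOSL2, -0.21 to 0.25 at ATF3 and -0.0294 to 0.28 at BATF3.

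Same-numbered libraries of the 2 lines showed no shared deviation over genes, with correlations of 0.0137 (Pol II), -0.0092 (H3K4me3) and -0.0056 (H3K9Ac). The labels do not say whether same-numbered libraries were prepared together, and these correlations cannot tell. With a replicate block the calls were 1 gene (Pol II), 0 (H3K4me3) and 2 (H3K9Ac), and no AP-1 gene. Depth is unknown, each group has 2 libraries and most scores are tied, and the part of each in the number of calls was not tested.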
